A study of Danio rerio with 5 samples.

Results

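The crystallins of the zebrafish lens were read here in single cells of the developing anterior segment. All gene symbols in the tables of the 5 time points that start with cryaa, cryab, cryba, crybb, crybg, crygm, crygn or crygs were taken, which gave 55 of 15413 symbols. They comprise 3 alpha, 7 beta acidic, 5 beta basic, 33 gamma M, 2 gamma N and 4 gamma S crystallins and crybgx, the only crybg symbol. Of these, 47 had at least 1 unique molecular identifier (UMI, the count of captured RNA molecules) and 8 had none, namely crygm1, crygm2a, crygm2b, crygm2c, crygm3, crygm6, crygm7 and crygmxl1. With 57714560 UMIs in all, a count of 0 allows a level of up to 0.0520 CPM (UMIs per 1e6 UMIs), for counting error only.

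The study followed the anterior segment mesenchyme, the cells that build the cornea, iris and drainage structures at the front of the eye. Eyes were dissected from embryos of the Tg[foxc1b:GFP] line (genotype AB), in which foxc1b regulatory sequence drives GFP, at 48, 72, 96, 120 and 144 hours post fertilization (hpf), and GFP+ cells were sorted. The embryos had been kept in PTU, which blocks pigment, and each preparation pooled many embryos. Each time point held 2 replicate libraries, called A and B here, and all came from the same line, with age as the condition compared. The libraries are the replicates, and the text calls the crystallins of a library or a cell by their UMIs and by CPM of all UMIs.

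The alpha crystallins are small heat shock proteins that act as chaperones, and the beta and gamma crystallins are compact structural proteins that give the lens its refractive power. Lens fibre cells fill with these proteins as they elongate and lose their organelles. The gamma M family is abundant in fish, whose lens is dense and round. The lens does not belong to the anterior segment mesenchyme, yet some crystallins are also known from retina, cornea and other tissues.

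The tables held 12234 cells, between 102 and 2759 per library, with totals of 788648 to 15621511 UMIs and medians of 760 to 3709 UMIs per cell. The labels name the tissue anterior segment mesenchyme, but by marker genes 45.1% of the cells were retinal or neural-like, 17.9% corneal epithelial-like, 10.9% like the annular ligament class the study calls AL2, and 8.64% mesenchymal, with 15.9% unnamed. These classes came from clusters made without the crystallins. Some unnamed clusters had genes of the mesenchymal marker lists among their top genes, and others did not. Among them were 1 of 346 cells at 48 hpf (cthrc1a, pmp22a) and 1 of 237 cells at 120 hpf (col2a1a, matn4). The mesenchymal share of 8.64% may thus be too low. A total of 92 cell barcodes occurred in more than 1 library, 61 of them in both 48 hpf B and 144 hpf B, the library of 102 cells. The 231 cells that carry such barcodes held 17 crystallin UMIs. Libraries 48 hpf A and 72 hpf A are listed as made with an earlier kit version than the other libraries, and the replicates of each age carry different batch names in the table of cells. From 72 hpf on, library B of each age up to 120 hpf has the same batch name as library A of the next age. A fit with both age and batch as terms would use up all 10 libraries, so batch and age cannot be told apart over time.

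Crystallin UMIs were few in most libraries and very many in 72 hpf A. The summed level was 12.6 CPM in 48 hpf A and 21.3 CPM in 48 hpf B. At 72 hpf it was 1069 CPM in A and 11.5 CPM in B, and at 96 hpf it was 11.0 CPM in A and 8.60 CPM in B. The 120 hpf libraries had 15.7 CPM (A) and 162 CPM (B), and the 144 hpf libraries 31.3 CPM (A) and 3.8 CPM (B). At 72, 120 and 144 hpf the libraries of the same age thus lay far apart. In all, 6946 UMIs were crystallin UMIs, and 569 cells (4.65%) held at least 1.

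**Figure D1:**
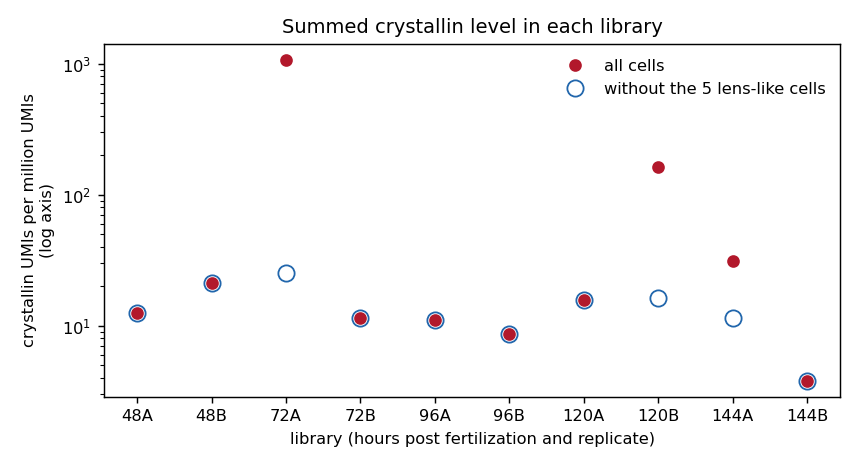
Summed crystallin level of each of the 10 libraries in CPM, on a log axis, over all cells and after the 5 lens-like cells were left out. With all cells 72 hpf A stands at 1069 CPM and 120 hpf B at 162 CPM, and without the lens-like cells all 10 libraries lie between 3.8 and 25.1 CPM.

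The 3 highest libraries owed their level to 5 cells, and 4 of them lay in the batch common to 120 hpf B and 144 hpf A. A list of 20 lens genes without crystallins, among them the aquaporins mipa and mipb of the fibre membrane, the lim2 membrane proteins and the beaded filament gene bfsp2, served to find lens cells. Cells with UMIs of at least 2 of these genes numbered 14, of which 7 held a crystallin UMI and 5 held more than 1% crystallin UMIs. These 5 were also the cells with UMIs of at least 5 lens genes, a limit chosen after the values had been seen, and they are called lens-like below. They made up 0.0409% of all cells (exact binomial 95% interval 0.0133 to 0.0954%) and held 6138 of the 6946 crystallin UMIs (88.4%). None was called a doublet and none shared a barcode with another library.

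The lens-like cell of 72 hpf A had 3585 crystallin UMIs among its 4608 UMIs (77.8%, exact interval 76.6 to 79.0%), from 36 of the 55 genes. It also held 28 UMIs of bfsp2, 12 of lim2.4 and 12 of lgsn, the gene of the lens protein lengsin. One cell of 120 hpf B had 1343 crystallin UMIs of 2676 (50.2%, interval 48.3 to 52.1%) beside 56 UMIs of lim2.4 and 45 of grifin, which encodes a galectin-related lens protein. A further cell of that library had 852 of 1459 (58.4%, interval 55.8 to 60.9%) beside 30 UMIs of lim2.4 and 20 of mipb. The share was lower in the remaining lens-like cells, at 276 of 594 UMIs (46.5%, interval 42.4 to 50.6%) in 144 hpf A and 82 of 609 (13.5%, interval 10.9 to 16.4%) in the last cell of 120 hpf B. All 5 thus devoted far more of their UMIs to crystallins than any other cell, and no library of 48 or 96 hpf held such a cell.

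Around the limit the cells were few. No cell had 4 lens genes, and the only cell with 3, in 72 hpf B, held 12 UMIs of foxe3, a transcription factor of the lens epithelium, but 1 crystallin UMI among 2538. Conversely, 2 cells with no lens gene exceeded 1%, namely 1 of 48 hpf B with 31 of 1103 UMIs (2.81%, from 19 members) and 1 of 120 hpf B with 22 of 676 (3.25%, from 15 members). The crystallin-free clustering had put 3 lens-like cells among retinal progenitor-like cells, 1 in a CEp2-like cluster and 1 in an unnamed cluster, so no cluster of lens cells existed.

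**Figure D2:**
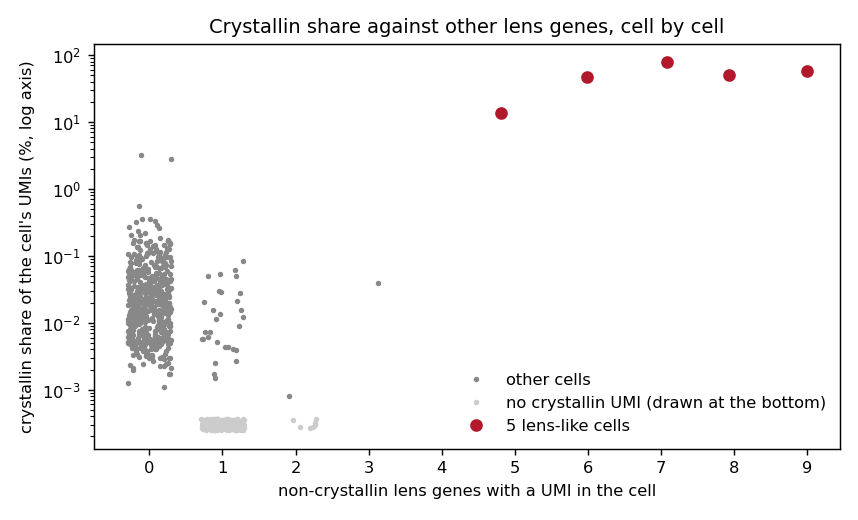
Each point is a cell, by the number of lens genes that are not crystallins (x axis) and the percent of its UMIs from crystallins (y axis), and cells with neither are not drawn. The 5 cells with 5 or more lens genes lie between 13.5 and 77.8%, and the cell with 3 lens genes lies at 0.0394%.

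By family, the gamma M crystallins took 49.6% of all crystallin UMIs, the beta acidic 28.8%, the beta basic 14.8% and the gamma N 5.80%, against 0.561% for alpha, 0.418% for gamma S and 0.0288% for crybgx. The families differed in where their UMIs lay. Of the gamma M UMIs 95.4% lay in the 5 lens-like cells, followed by 86.6% of gamma N, 85.9% of beta basic and 80.6% of beta acidic UMIs. Of the alpha UMIs only 15.4% and of the gamma S UMIs 3.45% did. The crystallin UMIs of all other cells were therefore of another mix, with 48.0% beta acidic, 19.7% gamma M and 17.9% beta basic.

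**Figure D3:**
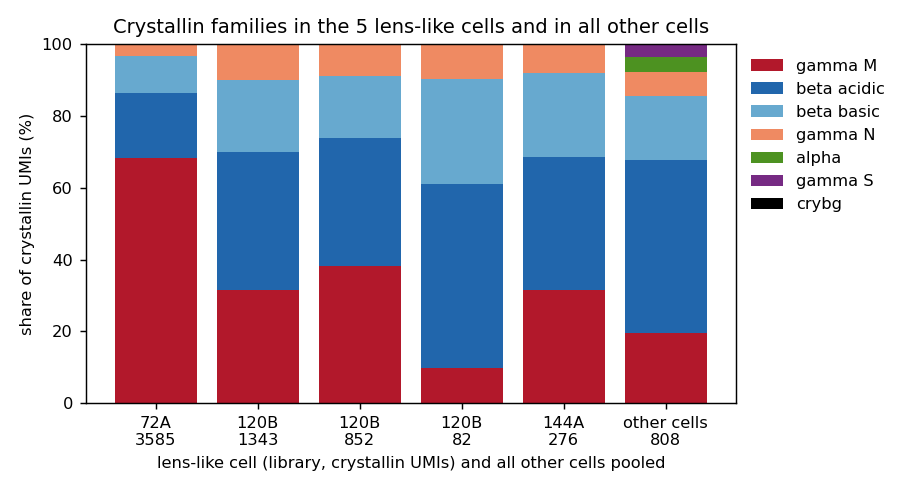
Percent of crystallin UMIs by crystallin family in each lens-like cell and in all other cells pooled over libraries. Gamma M genes make up 68.2% in the lens-like cell of 72 hpf A and less in those of 120 and 144 hpf, and beta acidic genes lead in the other cells as a whole, at 48.0%.

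The lens-like cells were not alike among themselves. Gamma M genes made up 68.2% of the crystallin UMIs of the 72 hpf cell, against 31.6, 38.3 and 9.76% in the 120 hpf cells and 31.5% in the 144 hpf cell. The gamma M gene crygmx ran the other way, with 1 UMI in the 72 hpf cell against 165, 75 and 8 UMIs in the 120 hpf cells and 23 in the 144 hpf cell. With 1 cell at 72 hpf and 1 at 144 hpf, age, library and cell cannot be told apart here, and no test was made.

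Among the beta acidic crystallins, cryba4 had the most UMIs of all 55 genes. Libraries A and B held 7 and 6 of its UMIs at 48 hpf. The 72 hpf libraries held 226 and 0, those of 96 hpf 6 and 5, those of 120 hpf 29 and 385, and those of 144 hpf 117 and 0. The gene thus had its highest counts in the 3 libraries with lens-like cells. In 144 hpf A, however, 84 of its 117 UMIs lay outside the lens-like cell. Of its 781 UMIs in all libraries, 506 came from the lens-like cells and 275 from other cells, the most of any member outside the lens-like cells. The next, cryba1l1, had 3 and 3, 131 and 6, 7 and 14, 8 and 211, and 38 and 0 UMIs over the same libraries. For cryba1b the libraries held 2 and 0, 83 and 1, 0 and 0, 3 and 196, and 29 and 0 UMIs, and for cryba2a 2 and 0, 187 and 0, 0 and 0, 2 and 65, and 6 and 0. By count cryba1b was thus high in the 3 libraries with lens-like cells and had at most 3 UMIs in any of the other 7. The same held for cryba2a in 72 hpf A and 120 hpf B. Its 6 UMIs in 144 hpf A, 5 of them in the lens-like cell, came from 13858140 UMIs. In 48 hpf A it had 2 of 3733652 UMIs, so by depth 144 hpf A was not higher. The low gene cryba1a, which overlaps crybb1l3 and unc119a1 in the reference annotation, had 0 and 1, 1 and 0, 1 and 2, 1 and 2, and 5 and 0 UMIs, 4 of its 13 in lens-like cells.

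Of the beta basic crystallins, crybb1 had 2 and 2, 270 and 1, 0 and 0, 3 and 356, and 48 and 0 UMIs in A and B from 48 to 144 hpf, and 648 of its 682 UMIs lay in lens-like cells. The related crybb1l2 had 105 UMIs in 72 hpf A, 103 in 120 hpf B and 24 in 144 hpf A, and 0 or 1 elsewhere. In contrast, crybb3 had 11 and 11, 7 and 7, 2 and 19, 10 and 17, and 15 and 3 UMIs, so that all 10 libraries overlapped without regard to lens-like cells. None of its 102 UMIs lay in a lens-like cell, but the few UMIs of those 5 cells could not show a level as low as the one it had in other cells, and the same holds for the other members with no UMI there.

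Of the 33 gamma M genes, 25 had UMIs. The largest, crygm2d13, had 178 UMIs in 72 hpf A, 123 in 120 hpf B and 18 in 144 hpf A, and 0 or 1 in the other libraries. The members crygm2d21 and crygm2d17 were mostly of 72 hpf A, with 194 and 198 UMIs there, against 21 and 8 in 120 hpf B, 6 and 2 in 144 hpf A, and at most 4 in any other library. For crygmx the counts were 251 in 120 hpf B and 26 in 144 hpf A, against 1 in 48 hpf A and in 72 hpf A and 0 elsewhere. For crygm2d20 they were 5 and 2, 196 and 5, 1 and 10, 3 and 22, and 2 and 0 UMIs, and 69 of its 246 UMIs lay outside lens-like cells. The 8 gamma M genes with no UMI do not belong to the crygm2d group. In the RefSeq assembly GRCz12tu 34 of the 55 genes lie on chromosome 9, and since crygm2d genes are near-identical copies, how reads were split among them is uncertain.

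The gamma N gene crygn2 had 8 and 2, 120 and 2, 0 and 3, 2 and 227, and 29 and 0 UMIs, 342 of 393 in lens-like cells. The alpha crystallins were low throughout. The lens chaperone gene cryaa had 8 UMIs in all (1 in 72 hpf A, 1 in 120 hpf A, 5 in 120 hpf B and 1 in 144 hpf A), 6 of them in lens-like cells. Of its paralogues cryaba had 9 UMIs, at most 3 per library, and cryabb had 22, of which 11 were in 120 hpf A and at most 5 in any other library. Neither had a UMI in lens-like cells, where such low levels were not detectable at this depth. Of the gamma S genes crygs1 had 23 UMIs, 6 in 120 hpf A, 6 in 120 hpf B, 8 in 144 hpf A and at most 1 elsewhere. The symbols cryaa and cryabb overlap other genes in the reference annotation (cryaa with hsf2bp, cryabb with hspb2 and cfap68). So do cryba2a, with tmem198ab, and crygmx and crybb1l2, each with a locus that has no gene name. No value here tells the reads of such overlapping genes apart.

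**Figure D4:**
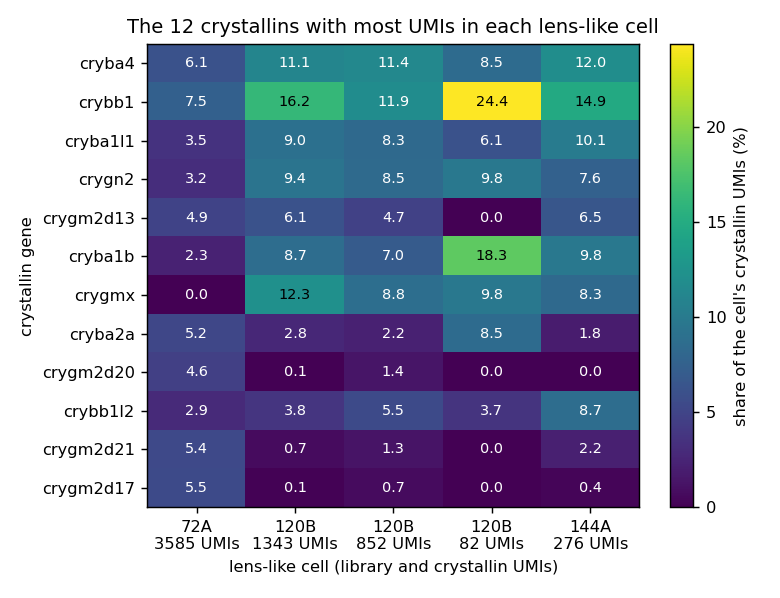
Percent of the crystallin UMIs of each of the 5 lens-like cells from the 12 crystallins with most UMIs, on a linear colour scale. The gene crybb1 takes between 7.48 and 24.4% in each cell. The gene crygmx takes 0.0279% in the cell of 72 hpf A and between 8.33 and 12.3% in those of 120 and 144 hpf.

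Outside the 5 lens-like cells the crystallins were sparse. There the libraries lay between 3.8 and 25.1 CPM (14.0 CPM over all), the 808 UMIs fell into 564 cells, and 82.1% of these cells had exactly 1. Were the UMIs spread over cells in proportion to depth, 44.9 cells would hold one in 48 hpf A and 48.7 in 48 hpf B, where 30 and 18 did. The same count was 47 cells for 75.9 in 72 hpf A, 175 for 233 in 120 hpf B and 122 for 147 in 144 hpf A, and it was 70 for 81.4 in 120 hpf A. In 48 hpf B a single cell held 31 of the 55 UMIs. In 72 hpf B, 96 hpf A, 96 hpf B and 144 hpf B the cells with a UMI numbered 25, 18, 56 and 3, against the 26.6, 21.1, 59.1 and 2.84 of an even spread. The number of cells was thus below that of an even spread in every library except 144 hpf B, by margins that differed, with no test made.

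At equal depth few cells kept a crystallin UMI. With each cell thinned to 400 UMIs (18 shallower cells left out), 82 of 12216 cells (0.671%, exact interval 0.534 to 0.833%) kept a crystallin UMI, against 4.65% unthinned. The share was 0.868% in corneal epithelial-like cells (0.524 to 1.35%), 0.902% in AL2-like cells (0.467 to 1.57%), 0.378% in mesenchymal cells (0.103 to 0.966%) and 0.581% in the retinal or neural-like class (0.397 to 0.819%), and these intervals overlap. Without cryba4, the member with most UMIs, the epithelial share was again 0.868% (0.524 to 1.35%) and the retinal share 0.181% (0.0870 to 0.333%). The highest library was 72 hpf A at 1.52% (0.763 to 2.71%). The share was 1.05% in 120 hpf B (0.706 to 1.51%) and 0.207% in 96 hpf B (0.0426 to 0.603%, 3 cells). The lowest value, 0.152% in 72 hpf B (0.00385 to 0.845%), rests on 1 cell and was 0.609% at 500 UMIs. All these intervals count cells, not libraries, and cover counting error only. They do not test whether classes or libraries differ.

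No class passed a test of its summed crystallin share against the other cells of the same library, once corrected for the 4 classes. In AL2-like cells no outcome could have passed. Within libraries, the log2 ratio of class over other cells averaged -0.57 ± 2.79 in corneal epithelial-like cells (SD, n = 9 libraries, exact sign-flip p = 0.559, adjusted p = 0.813). In retinal or neural-like cells it averaged 0.48 ± 2.72 (n = 9, exact p = 0.730, adjusted p = 0.813). It averaged -0.17 ± 1.35 in AL2-like cells (n = 5, exact p = 0.813, where 0.0625 is the smallest possible). In mesenchymal cells it was -2.42 ± 2.06, below 0 in 6 of 6 libraries, with the smallest p that 6 libraries allow (exact p = 0.0313, adjusted p = 0.125). These tests are two-sided. The lens-like cells set several of these values: without them the means were 0.23, -0.17, 0.89 and -0.93 for the epithelial, retinal, AL2 and mesenchymal cells, with adjusted exact p between 0.313 and 0.609. The 2 cells above 1% with no lens gene were kept in these means. One held 22 of the 32 mesenchymal UMIs of 120 hpf B, where the log2 ratio was 1.29, the only mesenchymal one of 6 above 0. The other held 31 of the 33 retinal UMIs of 48 hpf B, where the log2 ratio was 1.77.

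Behind these sums single genes went different ways. Of the 102 UMIs of the beta basic gene crybb3, 97 lay in corneal epithelial-like cells, a class named by marker genes alone. Cells like the basal layer class CEp1, marked by krt5 and tp63, held 85 and CEp2-like cells 12. CEp1-like cells of libraries A and B expressed it at 17.7 and 13.1 CPM at 48 hpf, then 7.43 and 5.91 (72 hpf), 2.03 and 3.12 (96 hpf), 3.26 and 6.71 (120 hpf), and 5.39 and 6.09 CPM (144 hpf). AL2-like cells had 0 CPM in each of their 5 libraries and Mueller glia-like cells 0 CPM in each of 6. Over the whole class a count of 0 allows, by a floor of 3 counts, up to 0.549 CPM in AL2-like cells, below every CEp1 library, and 3.42 CPM in Mueller glia-like cells, which is above 3 of them. Pooled, corneal epithelial-like cells had 4.90 CPM against 0.132 CPM in all other cells, a ratio of 37.1 (interval 15.4 to 117, for counting error only). With each library left out in turn the ratio lay between 27.5 and 58.5, the highest without 120 hpf B.

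Per cell, 62 of 1582 CEp1-like cells (3.92%, median depth 4809 UMIs) held a crybb3 UMI and 12 of 608 CEp2-like cells (1.97%, median 2417 UMIs). Cells with a crybb3 UMI were deep, with a median of 19264 UMIs over all classes. Against this stood 1 of 3502 retinal progenitor-like cells (0.0286%, median 3677 UMIs) and 0 of 1331 AL2-like cells, which allows a share of up to 0.225% by a floor of 3 counts. With each cell thinned to 2000 UMIs, 4 of 1000 CEp1-like, 2 of 322 CEp2-like and 0 of 783 AL2-like cells kept a UMI, levels too near 1 UMI to be ordered. The gene tnks1bp1, beside crybb3 in GRCz12tu, had 26.6 CPM in CEp1-like and 293 CPM in CEp2-like cells where crybb3 had 5.38 and 3.01 CPM.

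Outside lens-like cells, cryba4 was the main member in the retinal or neural-like and AL2-like classes. Of its 275 UMIs there, 173 lay in retinal or neural-like cells and 76 in AL2-like cells, against 4 in corneal epithelial-like cells. In Mueller glia-like cells, the supporting glia of the retina, the level was 19.9 CPM in 72 hpf A, 0 in 96 hpf A (13 cells), 16.0 in 96 hpf B, 60.7 in 120 hpf A, 118 in 120 hpf B and 101 in 144 hpf A. AL2-like cells had 18.2 and 0.830 CPM (96 hpf A and B), 18.6 and 24.1 CPM (120 hpf A and B) and 13.5 CPM (144 hpf A). In CEp1-like cells it lay between 0 and 0.959 CPM in 10 libraries, so 120 and 144 hpf libraries of both other classes lay above all of them.

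Pooled, cryba4 had 72.9 CPM in Mueller glia-like cells against 3.71 CPM in other cells (ratio 19.6, interval 14.6 to 26.1), and 13.9 CPM in AL2-like cells against 3.81 CPM in other cells (ratio 3.65, interval 2.77 to 4.78). Mueller glia-like cells had the highest cryba4 level of all classes and were not among the 4 classes tested, so their ratio describes a picked class. Of the 64 UMIs in these cells 37 came from 120 hpf B, and without that library their ratio was 17.1. A UMI was found in 53 of 522 Mueller glia-like cells (10.2%, median depth 1288 UMIs) and 43 of 1331 AL2-like cells (3.23%, median 2615 UMIs), but in 0 of 409 photoreceptor-like cells (median 2234 UMIs), which allows up to 0.733% by a floor of 3 counts. Thinned to 2000 UMIs the share was 13.1% of 137 Mueller glia-like cells (exact interval 7.98 to 19.97%), 1.28% of 783 AL2-like cells (0.614 to 2.34%) and 0.685% of 2336 retinal progenitor-like cells (0.392 to 1.11%). The 96 hpf cluster counted as Mueller glia-like was also led by the photoreceptor genes rho and opn1lw2. The neighbouring gene of cryba4 in GRCz12tu is crybb1, which had 34 UMIs in all cells outside the lens-like ones.

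Smaller counts set apart crygm2d20 and crygs1. Outside lens-like cells, 54 of 69 crygm2d20 UMIs were corneal epithelial-like, at 2.73 CPM against 0.396 CPM in other cells (ratio 6.89, interval 3.83 to 13.2), but 28 of the 50 in CEp1-like cells came from 5 cells of 72 hpf A. There the level was 34.7 CPM, against 0 to 4.93 CPM in the other 9 libraries. Without 72 hpf A the class held 22 UMIs against 15 in other cells, a ratio of 2.91. In 72 hpf A crygm2d20 made up 37.2% of the crystallin UMIs outside the lens-like cell and 4.57% of those inside it, whereas cryba4 made up 6.98 and 6.14%. For crygs1, 14 of 23 UMIs lay in AL2-like cells, at 2.48 CPM in 120 hpf A, 4.47 in 120 hpf B and 3.49 in 144 hpf A and 0 in both 96 hpf libraries, while corneal epithelial-like cells held 8 and the retinal or neural-like class 0. Pooled over AL2-like cells this was 2.56 CPM against 0.172 CPM in other cells (ratio 14.9, interval 5.996 to 39.0), with 24.5 as the ratio without 120 hpf A and 9.77 without 120 hpf B.

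**Figure D5:**
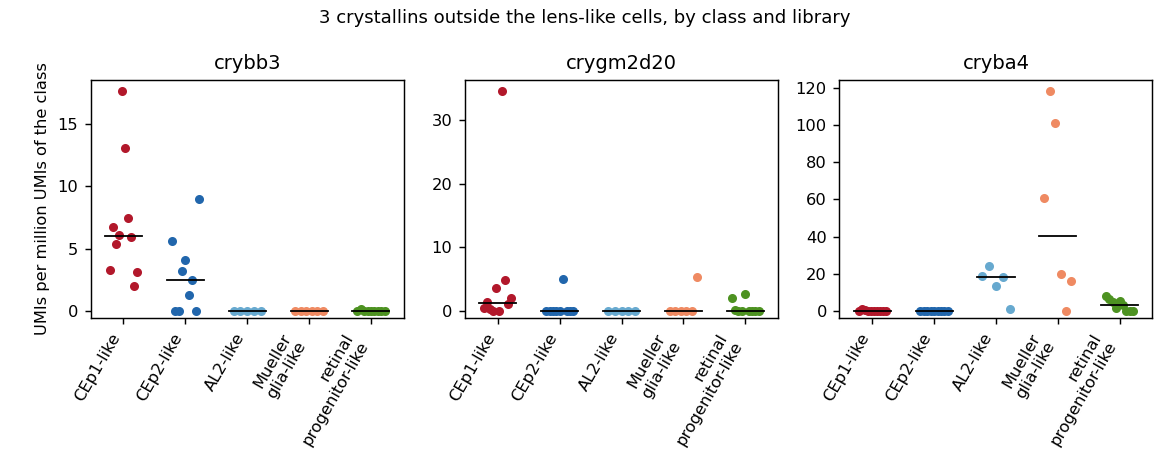
Level of selected crystallins by class in cells that are not lens-like, in CPM, each point a library with at least 10 cells of the class and each bar the median over libraries. In CEp1-like cells crybb3 lies between 2.03 and 17.7 CPM in 10 libraries, and cryba4 reaches 118 CPM in Mueller glia-like cells.

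The class fits compared UMIs summed per library and class with those of the other cells of the library. With a filter on low counts no crystallin entered the corneal epithelial, mesenchymal or retinal fit, in which 53.1, 40.6 and 62.4% of all genes tested were called. In AL2-like cells, where 15.2% of genes were called, cryba4 was the only member tested and had a log2 difference of 1.74 (SE 0.67), which did not pass (edgeR adjusted p = 0.145). Without the lens-like cells its difference was 2.44, which passed. Since the filter removed the members, the fits were also made with no filter and without lens-like cells, a setting chosen after the data had been seen.

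In that setting 5 of 43 crystallins were called in corneal epithelial-like cells, 4 higher and 1 lower, where 36.6% of all genes were called, 15.4% higher and 21.2% lower. The higher genes were crybb3 (log2 difference 6.0, SE 0.49, edgeR adjusted p = 2.56e-07), crygm2d20 (2.71, SE 0.73, edgeR adjusted p = 0.00877), cryba1l1 (1.65, SE 0.58, edgeR adjusted p = 0.0365) and cryba1a (2.68, edgeR adjusted p = 0.0480), the last with 7 UMIs in the class against 2 outside it. The gene cryba4 was lower (-3.65, SE 0.57, edgeR adjusted p = 0.000175). Fitted values of genes with so few UMIs depend on the fit, and the pooled ratio of crybb3 above is the more direct measure of its size. With each library left out in turn, crybb3, crygm2d20 and cryba4 were called in all 9 fits, crygm2d20 with a log2 difference of 2.08 without 72 hpf A. The calls of cryba1a and cryba1l1 were lost in 7 of the 9 fits each. The share of crystallins called lay below that of all genes.

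For the other classes the same setting called fewer members. In AL2-like cells it called 1 of 38, cryba4 (log2 difference 2.38, SE 0.55, edgeR adjusted p = 0.0201), where 11.9% of genes were called and 4.68% were higher. This call was lost without 120 hpf A (edgeR adjusted p = 0.0927) or 120 hpf B (edgeR adjusted p = 0.0916). In mesenchymal cells it called 2 of 37, crybb3 and crygm2d20, both lower, where 27.4% were called and 18.7% were lower, and 0 or 1 with any library left out. In retinal or neural-like cells it called 4 of 43, all lower, where 45.1% were called and 29.9% were lower. These were cryabb (-2.73), cryba1b (-3.07), crybb3 (-5.71, edgeR adjusted p = 9.22e-07) and crygs1 (-5.08, edgeR adjusted p = 0.0101), and with single libraries left out 2 to 5 members were called, the fewest without 120 hpf B. A call in one class and none in another does not show that classes differ from each other, which was not tested.

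Over time no crystallin was called in all sorted cells, where few could be tested. Of 13 members tested in all sorted cells, 0 passed for any change over the 5 ages (5 had an unadjusted p under 0.05, and DESeq2 called 0) and 0 for the mean of 120 and 144 hpf minus that of 48 and 72 hpf (0 under 0.05, and DESeq2 called 0). Of all genes tested, 0.0809% and 0.981% passed by edgeR, and 6.2% and 6.25% by DESeq2. An unadjusted edgeR p under 0.05 was reached by 1023 and 1506 of the 9883 genes. The members' median log2 difference, later minus earlier, was 0.15, against 0.02 over all genes, but over other sets of members it was 3.64 without 72 hpf A, -3.78 without 120 hpf B and -3.32 without 144 hpf A. Without the lens-like cells 2 members passed the filter and 0 were called, so the other members had been tested through those few cells. Of these 2, 0 had an unadjusted edgeR p under 0.05 for any change. Later minus earlier 1 had, as did 1510 of 9868 genes. With 1 library of 72 hpf near 1069 CPM and the other at 11.5 CPM, the spread between replicates was wide, as the standard error of crybb1 shows (log2 difference 0.44, SE 1.41).

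Within corneal epithelial-like cells crybb3 was the only member tested over time. Later minus earlier its log2 difference was -0.19 (SE 0.48, edgeR adjusted p = 0.822), where 17.8% of genes passed. For any change its edgeR adjusted p was 0.161, where 7.95% of genes passed. In the fit without 144 hpf B crybb1 was called, but the lens-like cell of 144 hpf A, which lay in a CEp2-like cluster, held 41 of its UMIs. Corneal epithelial-like cells that are not lens-like held 2. Within retinal or neural-like cells 30 members passed the filter and 0 passed the edgeR test of any change, where 0.026% of genes passed. DESeq2 called 3, cryba4, crygm2d20 and crygn2, and the edgeR share of all genes is no measure for these calls. Later minus earlier 0 passed, where 0.325% of genes passed. Leaving out 72 hpf B gave 27 calls for any change, leaving out 96 hpf A, 96 hpf B, 120 hpf A or 120 hpf B gave 8, 7, 5 or 1, and leaving out 72 hpf B gave 6 calls later minus earlier. Over all genes, the fits with single libraries left out called 0 to 134 (any change) and 4 to 112 (later minus earlier). Without the lens-like cells 1 member passed the filter and 0 were called, so that nearly all had been tested through those few cells.

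Other lens genes lay in part in the lens-like cells, which had been chosen by UMIs of these same genes. Of the 20 listed, 19 matched a symbol and 17 had UMIs, 681 in all, with 334 (49.0%) in the lens-like cells. Their level was 33581 CPM there against 6.01 CPM in other cells, a direction that the choice of cells had fixed in advance. The lens fibre genes differed, with 102 of 124 lim2.4, 30 of 31 bfsp2, 29 of 30 lim2.3, 48 of 81 mipb and 26 of 62 mipa UMIs in lens-like cells. In contrast, tdrd7b (110 UMIs), lim2.2 (62 UMIs) and the connexin genes gja8a and gja8b (6 and 3 UMIs) had none there. Of 15 lens transcription factors 13 matched, and 1 of their 29549 UMIs lay in lens-like cells. The most abundant were pax6a, six3b and pax6b, which the retina also expresses. Small heat shock proteins, the wider family of the alpha crystallins, had 1624 UMIs, 1396 of them hspb1, and 0 in lens-like cells. Their 28.1 CPM in other cells lay below the 101 CPM that 1 UMI makes in the lens-like cells.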

How the data were processed

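Single cells sorted for GFP from dissected eyes were profiled at 5 time points. The authors deposited UMI counts without normalization, 1 matrix per time point with both replicate libraries in it, and a table that names each cell's library. Reads had been mapped to GRCz11 by Cell Ranger 6.0 and counted against RefSeq transcripts. Features (16283) were summed to symbols, and all 12234 cells were kept. Crystallins were left out of the clustering (genes in at least 10 cells, 100 principal components, 20 nearest neighbours, Leiden resolution 1, scanpy 1.11.5, leidenalg 0.10.2, Python 3.11.15), which was run per time point. To be named from a marker list, a cluster needed at least 3 of its markers, and at least 1/3 of the list, 4-fold above the median cluster. For this 10 CPM had been added, and each marker had to be in at least 10% of cells. No other broad class could have more markers among the cluster's top 10 genes, and shallow clusters needed a marker among these. Clusters that failed stayed unnamed, such as 1 of 346 cells at 48 hpf with 8 of 9 markers raised, and counted among the other cells. Doublets were scored by simulation and kept (175 cells, 1.43%).

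UMIs were summed per library, or per library and class of at least 10 cells, and tested by edgeR 4.0.16 quasi-likelihood fits over all genes with Benjamini-Hochberg adjustment at 0.05 (R 4.3.3). Class fits had library as a covariate. DESeq2 1.42.0, no filter, other scalings and resolutions, joint clustering, doublets left out, the authors' combined depth-equalized matrix and each library left out were alternatives. Scripts were tested on simulated data. Intervals are exact at 95%, limits for a count of 0 take 3 counts as the floor, and both cover counting error only. Summed shares were compared within libraries after 0.5 counts had been added.

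The p-values measure the spread between libraries, which the study calls independent replicates. Named with library values are the 12 members with most UMIs, the alpha crystallins and members past a test. The members and lists were chosen with earlier results of these data known, and the limit of 5 lens genes after the data had been seen. No sequence is shown, and 0 other sample columns were found.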

Additional observations from a re-analysis of the deposited data

How the results depend on the processing

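Precision was limited by few UMIs per member outside the lens-like cells and by 2 libraries per age. With no filter on low counts, crystallins called were 6 over time (any change), 10 in corneal epithelial-like, 27 in mesenchymal and 5 in retinal or neural-like cells, 8 and 1 over time within epithelial cells (any change, later minus earlier) and 30 and 10 within retinal cells. With the lens-like cells left out as well they were 5 (epithelial), 1 (AL2), 2 (mesenchymal), 4 (retinal) and 1 (within epithelial, any change), and with no filter and cells of shared barcodes left out 10, 26 and 5 (epithelial, mesenchymal, retinal). With no filter alone, 47 crystallins were tested over time and as many in epithelial and in mesenchymal cells. Of all genes, 1.66% (over time, any change), 36.5% (epithelial) and 27.9% (mesenchymal) were called in these fits. In the retinal class fit 45.1% of all genes were called with the lens-like cells left out as well. The counts over time within a class have no share over all genes beside them, so they are no result about crystallins. In AL2-like cells 1 member, cryba4, was called by DESeq2, at resolution 0.5, without called doublets and without lens-like cells (log2 differences 1.86, 2.47, 2.63 and 2.44). It was the only member tested in these fits, where 19.2, 16.1, 17.4 and 15.2% of all genes were called. DESeq2 called 3 within retinal cells (any change), a count with no share over all genes beside it. Leaving out each library in turn gave 0 to 1 calls within epithelial cells (any change; 1 without 144 hpf B), and 0 to 27 (27 without 72 hpf B) and 0 to 6 within retinal cells. Over all genes the calls of these fits were 240 to 855 (epithelial, any change), and 0 to 134 and 4 to 112 (retinal). With no filter and without lens-like cells, leaving out each library in turn gave 3 to 4 (epithelial), 0 to 1 (AL2), 0 to 1 (mesenchymal) and 2 to 5 (retinal) crystallin calls.

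The summed log2 share turned to 0.23 (epithelial), 0.89 (AL2) and -0.17 (retinal) without lens-like cells, to 0.86 (epithelial), -0.08 (AL2) and -0.76 (retinal) without cryba4 too, and to -1.41 (AL2, above 0 in 0 of 5 libraries) and -0.0124 (retinal) without cryba4 alone. Over single libraries left out it ranged from -1.01 to 0.0734 (epithelial, highest without 72 hpf A), from -0.53 to 0.33 (AL2, highest without 120 hpf B) and from -0.32 to 0.86 (retinal, lowest without 72 hpf A), and the later minus earlier difference from -3.58 to 5.64 for cryba4, from -0.84 to 0.20 for crybb3, and from -0.42 to 0.0154 for crybb3 within epithelial cells. None of these log2 values passed its test after adjustment. The epithelial value of 0.86 was above 0 in 7 of 9 libraries (exact sign-flip p = 0.0156, adjusted p = 0.0625). Its setting was not planned and left out cryba4, known to be low in epithelial cells. A rise above 0.23 was thus fixed in advance, and this p is no support for a raised share. The causes were not tested.

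Cells with a crystallin UMI were 0.841% of all and 0.895% of retinal cells at 500 UMIs, and with no thinning 4.65% (all), 8.26% (epithelial), 5.63% (AL2), 1.42% (mesenchymal) and 4.17% (retinal). Without cryba4 they were 0.434% (all), 0.868% (epithelial), 0.451% (AL2) and 0.181% (retinal). The top 5% of cells held 100% of crystallin UMIs (median library). In most libraries fewer than 5% of cells held any, so this value was fixed in advance and shows no concentration. Lens marker cells numbered 292, 6 and 5 with at least 1, 3 and 5 lens genes. Over all genes, calls over time (8 and 97) were 613 and 618 by DESeq2, 0 and 0 without the earlier kit version, and between these under the other settings. Within epithelial cells the 552 and 1238 calls ranged from 240 to 1695 and from 568 to 1560, within retinal cells the 2 and 25 calls from 0 to 515 and from 4 to 294, and in AL2-like cells the 1081 calls from 591 to 1693. Taking the replicate letter as a replicate block gave 7 and 62 genes and changed no crystallin call. Deviations of same-letter libraries correlated between -0.53 and 0.55, 4 of 10 over 0.1, so letters were not taken to pair samples.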

Other observations

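Over the 10 libraries, the gene whose level was most like that of the summed crystallins was si:ch211-255g12.6 (Pearson r = 0.964 of log2(CPM + 1)), 129 of whose 132 UMIs lay in the lens-like cells. The next genes, zgc:56628 (0.879), rundc3ab (0.874), sox19b (0.864) and taco1 (0.860), had 0 UMIs there. These are descriptions over 10 libraries that share their depth and batch. The uncharacterized gene si:dkey-57a22.15 had 38 UMIs, all in 1 lens-like cell, and was chosen after its values had been seen.

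Hemoglobin transcripts, which mark erythrocytes, had 1410 UMIs and 0 in lens-like cells, with library levels between 0.216 and 543 CPM. In all other cells they stood at 24.4 CPM, where 1 UMI in the lens-like cells makes 101 CPM. Stress response genes held 20 UMIs in the lens-like cells, at 2011 CPM there against 9273 CPM in other cells. Crystallins made up 61.7% of the UMIs of the lens-like cells, which lowers the CPM of all other genes there. In the cells that are not lens-like, 11 of 22 cryabb UMIs were in unnamed clusters and 3 in mural-like cells, and 29 of 51 crygn2 UMIs were in retinal or neural-like cells.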
